A study of Drosophila melanogaster with 6 samples.

Results

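The 6 genes described here encode the enzymes that make, turn over and break down glycine and its methylated form, sarcosine: Gnmt, Sardh, Shmt and the glycine cleavage subunits CG6415, CG3999 and ppl. They were picked by symbol, but with earlier results of these data known, so counts over them are a description. They are 6 of the 17753 gene rows of a table of read counts from whole heads of adult Drosophila melanogaster. Kdm3 KO, a knockout of Kdm3, a JmjC-domain gene of the histone demethylase family, is set against wBerlin, the control stock. Each genotype has 3 biological replicate libraries of 50 heads, from flies taken 2 to 7 days after eclosion and reared at 25 °C and 70% relative humidity, and RNA was sequenced after removal of ribosomal RNA. The labels give neither the sex of the flies nor the way the knockout was made, and they name no treatment.

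Glycine is a hub of one-carbon metabolism. Serine hydroxymethyltransferase (Shmt) converts serine and tetrahydrofolate to glycine and methylene-tetrahydrofolate. The mitochondrial glycine cleavage system takes glycine apart and loads its methylene carbon onto the same folate carrier: the P protein decarboxylates glycine, the lipoyl-bearing H protein carries the intermediate, the T protein passes the carbon to folate, and the L protein re-oxidizes the H protein. Glycine N-methyltransferase (Gnmt) spends the methyl donor S-adenosylmethionine (SAM) to turn glycine into sarcosine, and sarcosine dehydrogenase (Sardh) turns sarcosine back into glycine in the mitochondrion. In flies Gnmt is known for keeping SAM in check in the fat body, the counterpart of liver and adipose tissue, and ppl (pumpless) is a fat body gene known from larval feeding.

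Library totals ran from 19850981 to 25571878 counts in Kdm3 KO and from 21935654 to 28237382 counts in wBerlin. Levels are counts scaled to library size by TMM (CPM), and calls are at an adjusted p under 0.05 in edgeR's quasi-likelihood test over 14069 genes. Of these genes 303 were higher and 129 lower in Kdm3 KO, which is 2.15% and 0.917% of those tested. Kdm3 itself was at 3.86, 0.642 and 0.710 CPM in Kdm3 KO replicates 1, 2 and 3, against 32.5, 30.1 and 28.7 CPM in wBerlin replicates 1, 2 and 3. It shares 508 exonic bases with CG8176 on the same strand. Kdm3 KO replicate 2 stands apart on the first principal component, which holds 44.1% of the variance, and the calls of the enzyme genes and the count of pathway genes are also given without it. Where nothing says that replicates came from separate crosses, p-values measure only the spread between these libraries.

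All 6 genes passed the filter on low counts, with 112 to 8029 reads per gene and library. Gnmt, Sardh and Shmt rose in Kdm3 KO, and 0 of the 6 fell, beside 3.07% of all tested genes called in either direction. DESeq2 gave 4 higher and 0 lower, beside 6.95% of its tested genes in either direction, and limma voom 3 and 0, beside 2.77%. At an unadjusted p under 0.05 there were 6 higher and 0 lower, a threshold whose share over all genes is not given here. By p, ppl, with the largest p of the 6, ranked 1345 among the 14069 tested genes. The 3 glycine cleavage genes did not pass edgeR's test. In all 6 genes every Kdm3 KO library lay above every wBerlin library, an ordering that 9.35% of the tested genes show, with 9.33% in the reverse order. The median log2 fold change was 1.13 over the 6 genes and 0.0357 over all tested genes.

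**Figure D1:**
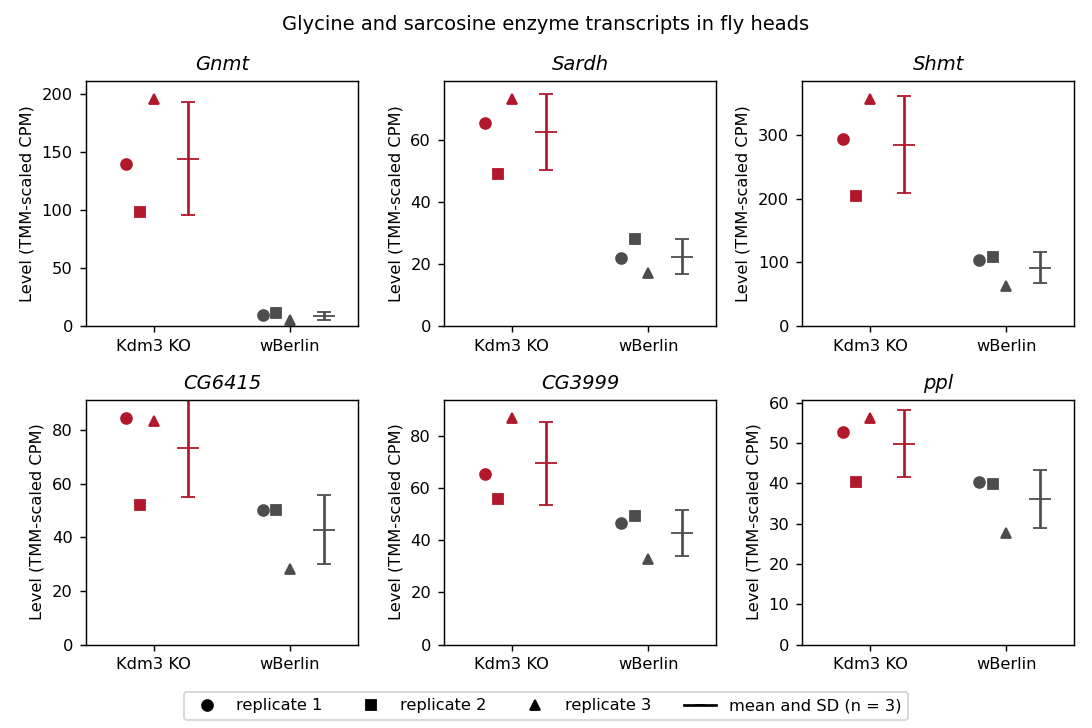
Level of each enzyme transcript (TMM-scaled CPM, linear axis from 0) in 3 Kdm3 KO and 3 wBerlin libraries, with the marker shape for the replicate and a bar for the mean and SD. Gnmt lies between 97.9 and 195 CPM in Kdm3 KO and between 5.13 and 11.0 CPM in wBerlin, while ppl lies between 40.4 and 56.3 CPM in Kdm3 KO and between 27.7 and 40.3 CPM in wBerlin.

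Gnmt (FBgn0038074) lies on arm 3R at 12674608 to 12676084 (BDGP6, plus strand), with 4 exons in 1 annotated transcript. It was at 139, 97.9 and 195 CPM in Kdm3 KO replicates 1, 2 and 3, against 9.84, 11.0 and 5.13 CPM in wBerlin replicates 1, 2 and 3. The groups were far apart, and the library lowest in each, Kdm3 KO replicate 2 and wBerlin replicate 3, still differed in the same direction. The rise was 16.5-fold, with a 95% interval of 10.1- to 27.0-fold (log2 fold change 4.04, SE 0.317, adjusted p = 0.000448 by edgeR). Only 7 of the 14069 tested genes had a higher log2 fold change. Gnmt shares 75 exonic bases with CG43630 on the opposite strand. No source used here says whether counting was stranded, and without strand the reads of these genes cannot be told apart there. CG43630 was listed at 0.358, 0.413 and 0.399 CPM in Kdm3 KO and at 0.0718, 0.109 and 0.0458 CPM in wBerlin, below the filter.

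Sardh (FBgn0034276, arm 2R, 17753555 to 17756422, minus strand), which undoes the methylation step of Gnmt, was at 65.4, 48.8 and 73.0 CPM in Kdm3 KO, against 22.0, 28.1 and 17.0 CPM in wBerlin, in replicate order. The groups did not overlap, and the highest wBerlin library had 28.1 CPM where the lowest Kdm3 KO library had 48.8 CPM. The rise was 2.78-fold (95% interval 2.06 to 3.77, SE 0.195 on the log2 scale, adjusted p = 0.00501 by edgeR). No annotated gene overlaps Sardh.

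Shmt (FBgn0029823, arm X, 5913067 to 5916797, minus strand, 3 annotated transcripts) had the highest CPM of the 6 genes. It was at 294, 204 and 356 CPM in Kdm3 KO, against 103, 108 and 63.3 CPM in wBerlin. Again the groups did not overlap, with Kdm3 KO replicate 2 and wBerlin replicate 3 the lowest of their genotypes. The rise was 3.11-fold (95% interval 2.15 to 4.50, SE 0.237 on the log2 scale, adjusted p = 0.00700 by edgeR). Shmt shares 110 exonic bases with asRNA:CR44108 and 13 with CG12236, both on the opposite strand. The antisense RNA was at 1.43, 0.688 and 1.15 CPM in Kdm3 KO and 0.503, 0.474 and 0.320 CPM in wBerlin and was not called (adjusted p = 0.169 by edgeR). CG12236 had a log2 fold change of −0.24 (adjusted p = 0.253 by edgeR).

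The glycine cleavage genes had smaller differences. CG3999, the P protein gene by homology with human GLDC (FBgn0037801, arm 3R, 10251518 to 10255268, plus strand), was at 65.6, 55.9 and 87.0 CPM in Kdm3 KO, against 46.5, 49.4 and 32.8 CPM in wBerlin. Its log2 fold change was 0.69 (95% interval 0.274 to 1.12, SE 0.187, adjusted p = 0.0909 by edgeR). DESeq2 called it, with a log2 fold change of 0.68 and an adjusted p of 0.00446. The lowest Kdm3 KO library exceeded the highest wBerlin library by a narrow margin, 55.9 against 49.4 CPM.

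CG6415, the T protein gene by homology with human AMT (FBgn0032287, arm 2L, 10703621 to 10704930, plus strand), was at 84.7, 52.2 and 83.6 CPM in Kdm3 KO, against 50.3, 50.3 and 28.1 CPM in wBerlin. Kdm3 KO replicate 2 was close to wBerlin replicates 1 and 2. The log2 fold change was 0.78 (95% interval 0.234 to 1.32, SE 0.241, adjusted p = 0.143 by edgeR). Lip2 overlaps CG6415 on the opposite strand but shares no exonic base with it.

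The H protein gene ppl (FBgn0027945, arm 3L, 21280491 to 21281506, minus strand) was at 52.6, 40.4 and 56.3 CPM in Kdm3 KO, against 40.3, 39.9 and 27.7 CPM in wBerlin. Here the genotypes touched, at 40.4 CPM in Kdm3 KO replicate 2 and 40.3 CPM in wBerlin replicate 1. The log2 fold change was 0.47 (95% interval 0.091 to 0.841, SE 0.167, adjusted p = 0.210 by edgeR). The L protein gene, by homology CG7430, serves other dehydrogenase complexes as well. It was at 594, 528 and 589 CPM in Kdm3 KO, against 529, 537 and 553 CPM in wBerlin, with a log2 fold change of 0.08 (adjusted p = 0.796 by edgeR).

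To set the genes beside each other, levels were divided by exonic length (RPKM). In Kdm3 KO heads the order of mean levels was Gnmt (145 ± 49.3 RPKM), Shmt (113 ± 30.4), CG6415 (58.6 ± 14.7), ppl (55.3 ± 9.23), Sardh (22.7 ± 4.49) and CG3999 (21.7 ± 4.98, SD, n = 3 each). In wBerlin heads it was ppl (40.0 ± 7.98 RPKM), Shmt (36.3 ± 9.72), CG6415 (34.2 ± 10.2), CG3999 (13.4 ± 2.78), Gnmt (8.75 ± 3.15) and Sardh (8.13 ± 2.02, SD, n = 3 each). Gnmt thus led the order in Kdm3 KO and stood last but 1 in wBerlin. The neighbouring pairs Gnmt and Shmt, CG6415 and ppl, and Sardh and CG3999 in Kdm3 KO lay within their SDs. So did ppl, Shmt and CG6415, and also Gnmt and Sardh, in wBerlin. These SDs are between libraries. Within libraries, Gnmt was above Shmt in every Kdm3 KO library. In every wBerlin library ppl was above Shmt and Shmt above CG6415. The order of the other named pairs changed between libraries.

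Ratios within a library set the enzymes of consecutive steps against each other. The RPKM ratio of Gnmt to Sardh was 5.91, 5.57 and 7.43 in Kdm3 KO, against 1.24, 1.09 and 0.836 in wBerlin. Transcripts for making sarcosine thus outnumbered those for breaking it down in Kdm3 KO, while in wBerlin they were near parity. The ratio of Shmt to CG3999 was 5.70, 4.63 and 5.20 in Kdm3 KO, against 2.82, 2.77 and 2.45 in wBerlin. The ratio of Gnmt to Shmt was 1.20, 1.22 and 1.39 in Kdm3 KO, against 0.243, 0.260 and 0.206 in wBerlin. These 3 ratios did not overlap between the genotypes, and the exact permutation test over the 6 libraries (two-sided) gave p = 0.1 for each, the smallest it can give here. Adjusted over the 6 ratios compared, it was 0.15. The ratio of Sardh to Shmt was 0.203, 0.219 and 0.188 in Kdm3 KO and 0.195, 0.239 and 0.246 in wBerlin (exact permutation p = 0.3). These values overlapped, with a difference of −0.15 on the log2 scale against SDs of 0.112 in Kdm3 KO and 0.182 in wBerlin. Within the cleavage system the ratio of CG6415 to CG3999 overlapped between the genotypes (2.38 to 3.29 in Kdm3 KO, 2.18 to 2.76 in wBerlin, exact permutation p = 0.7). The ratio of ppl to CG3999 was 2.30 to 2.85 in Kdm3 KO and 2.87 to 3.08 in wBerlin (exact permutation p = 0.1).

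The 6 genes also varied together among libraries of 1 genotype. Kdm3 KO replicate 2 was the lowest Kdm3 KO library and wBerlin replicate 3 the lowest wBerlin library for 6 of the 6 genes. Over all tested genes 19.1% had this order. Deviations from the genotype mean in Kdm3 KO replicate 2 ran from −0.50 (Gnmt) to −0.29 (CG3999 and ppl) on the log2 scale. In wBerlin replicate 3 they ran from −0.67 (Gnmt) to −0.36 (Sardh, CG3999 and ppl). Gnmt deviated most in each of these libraries. Kdm3 KO replicate 3 was the highest of its genotype for 5 of the 6 genes, the exception being CG6415.

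**Figure D2:**
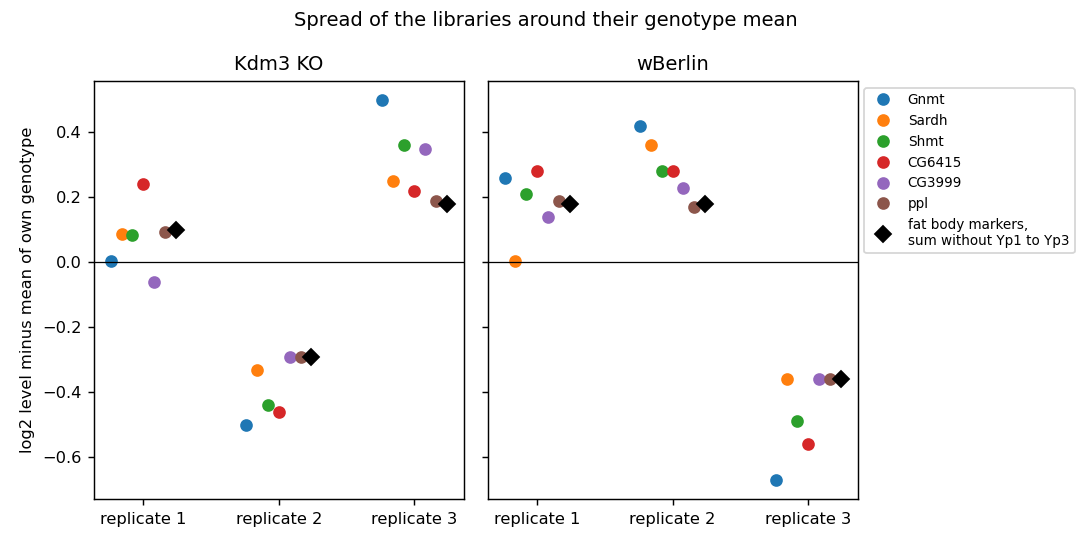
Log2 level of each enzyme gene minus the mean of its own genotype (vertical axis) in each library, with the summed fat body markers other than Yp1, Yp2 and Yp3 as black diamonds. All 6 genes and the diamonds are below 0 in Kdm3 KO replicate 2 and in wBerlin replicate 3, the libraries in which the glial, neuronal, photoreceptor and hemocyte sums, not drawn, are also lowest and the muscle and gut sums highest.

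Fat body markers moved the same way. Of 17 listed fat body genes 16 were tested, 6 rose (Apoltp, Pepck2, Ilp6, Yp3, fit and Desat1) and 1 fell (takeout, to), and the median log2 fold change was 0.82. The defining lipoprotein gene apolpp, on chromosome 4, is listed at 0 in every library, as are all rows of that chromosome. The summed list was at 28940, 22380 and 27650 CPM in Kdm3 KO replicates 1, 2 and 3, against 16860, 15050 and 10540 CPM in wBerlin replicates 1, 2 and 3. Without the yolk protein genes Yp1, Yp2 and Yp3 the sum was 6487, 4958 and 6863 CPM in Kdm3 KO, against 4414, 4393 and 3020 CPM in wBerlin. Its lowest libraries, Kdm3 KO replicate 2 and wBerlin replicate 3, are those lowest for the enzyme genes. This order was not particular to fat body markers: the summed glial, neuronal, photoreceptor and hemocyte markers were lowest in the same libraries, and the summed muscle and gut markers were highest in them. In whole heads more fat body cells and more RNA per fat body cell cannot be told apart. The labels do not give the sex of the flies, so the part of a differing share of females in these levels was not tested.

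The sum of those 14 fat body markers is weighted to its highest genes, and apolpp adds 0 to it. FASN1, Desat1 and Apoltp were at 2683, 1885 and 1166 CPM of 6487 CPM in Kdm3 KO replicate 1. In wBerlin replicate 1 they were at 2396, 780 and 758 CPM of 4414 CPM. Desat1 and Apoltp were themselves called higher in Kdm3 KO, while FASN1 was not called (1.19-fold, adjusted p = 0.660 by edgeR). The mean of the sum was 1.55-fold higher in Kdm3 KO than in wBerlin. A gene that rose less than the sum therefore falls on a scale divided by it, and 1 that rose about as much overlaps. Per 1000 CPM of this sum, a scale chosen after the values were seen, the 6 genes split. Gnmt was at 21.4, 19.7 and 28.4 in Kdm3 KO, against 2.23, 2.51 and 1.70 in wBerlin. Shmt was at 45.3, 41.2 and 51.9 in Kdm3 KO, against 23.4, 24.6 and 21.0 in wBerlin. Sardh was at 10.1, 9.85 and 10.6 in Kdm3 KO, against 4.98, 6.40 and 5.64 in wBerlin. For these 3 genes the genotypes stayed apart on this scale. For CG3999 they overlapped, at 10.1, 11.3 and 12.7 in Kdm3 KO and 10.5, 11.2 and 10.9 in wBerlin. CG6415 overlapped as well (10.5 to 13.1 in Kdm3 KO, 9.29 to 11.4 in wBerlin). For ppl, whose rise of 1.38-fold was smaller than that of the sum, the direction turned. It was at 8.11 to 8.20 in Kdm3 KO and at 9.09 to 9.17 in wBerlin. Its spread within each genotype was far smaller on this scale than in CPM.

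**Figure D3:**
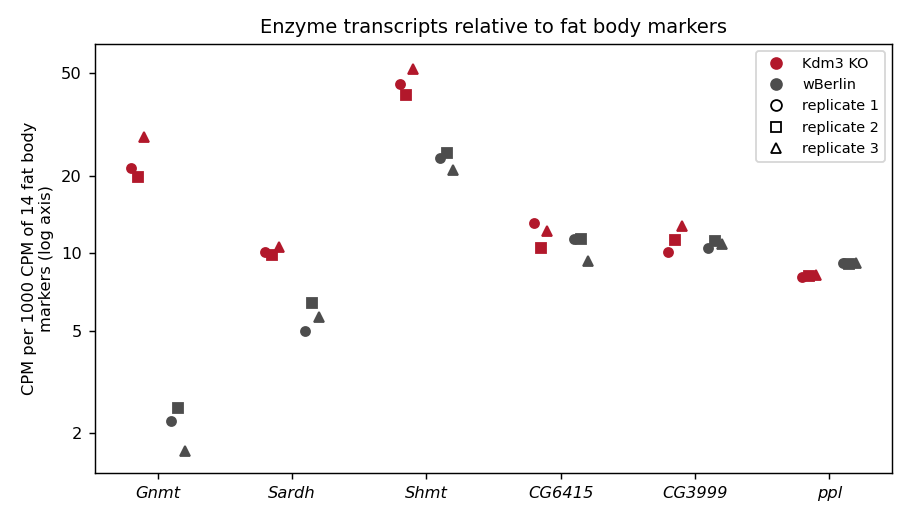
Level of each enzyme gene per 1000 CPM of 14 fat body markers (log axis) in 3 Kdm3 KO and 3 wBerlin libraries, with the marker shape for the replicate. Gnmt, Sardh and Shmt are higher in every Kdm3 KO library, CG6415 and CG3999 overlap, and ppl is lower in Kdm3 KO (8.11 to 8.20) than in wBerlin (9.09 to 9.17).

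Median log2 fold changes of 8 glial, 8 neuronal and 8 photoreceptor markers were 0.10, −0.09 and −0.11. By edgeR 0 of these 24 genes were called (1 at an unadjusted p under 0.05 and also by DESeq2, 0 by limma voom). That gene was alrm, of astrocyte-like glia, with a log2 fold change of 0.49 (adjusted p = 0.0781 by edgeR). Summed glial markers were at 3871, 3155 and 3724 CPM in Kdm3 KO, against 3386, 3150 and 3044 CPM in wBerlin. Summed neuronal markers were at 5192, 4768 and 5192 CPM in Kdm3 KO, against 5842, 5014 and 4885 CPM in wBerlin. The genotypes overlapped in both sums. Of 8 hemocyte genes 1 rose, PPO1 (1.55-fold, adjusted p = 0.0311 by edgeR). Of 8 muscle genes 1 fell, Act87E (adjusted p = 0.0409 by edgeR), and the median log2 fold change was −0.50. DESeq2 gave 2 lower, and an unadjusted p under 0.05 gave 3 lower and 2 higher. The 2 higher, TpnC4 and fln, were at 87.8 and 14.45 CPM in Kdm3 KO replicate 2. In the other libraries they were at 0.795 to 2.26 and 0.438 to 1.01 CPM. Act88F was also highest in Kdm3 KO replicate 2, at 1276 CPM, against 23.8 to 247 CPM in the others. The muscle sum was 9766, 15410 and 12880 CPM in Kdm3 KO, against 12380, 18770 and 23730 CPM in wBerlin, highest in the libraries where the enzyme genes were lowest. The part of muscle RNA in the levels of the enzyme genes was not tested. Gut markers summed to 142 CPM in Kdm3 KO replicate 2 and to 13.5 to 28.4 CPM in the other 5 libraries, and among them Amy-p and Amy-d rose, copies too alike for their reads to be assigned with certainty. Without Kdm3 KO replicate 2, Gnmt, Sardh and Shmt had log2 fold changes of 4.26, 1.63 and 1.83 and kept their calls (adjusted p = 0.00132, 0.00460 and 0.00512 by edgeR).

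Genes of the pathways around glycine were read from 4 lists, of which 32 genes were tested. Of these 11 rose and 0 fell in Kdm3 KO by edgeR, beside 2.15% and 0.917% of all tested genes. DESeq2 gave 16 and 0, beside 3.9% and 3.05% of its tested genes, and limma voom 11 and 0, beside 1.99% and 0.782%. An unadjusted p under 0.05 gave 19 and 1, a threshold whose share over all genes is not given here. Without Kdm3 KO replicate 2 the number that rose was 19, beside 4.05% of the genes tested in that fit. The median log2 fold change of the 32 genes was 0.46. The lists were drawn up with results on one-carbon genes known, so their counts are a description.

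Among 10 tested genes of serine and glycine supply and use, 5 rose and 0 fell. CG11899, by homology phosphoserine aminotransferase of serine synthesis, was at 82.7, 66.8 and 101 CPM in Kdm3 KO, against 39.6, 42.9 and 40.0 CPM in wBerlin (2.04-fold, adjusted p = 0.00539 by edgeR). CG6287, by homology phosphoglycerate dehydrogenase at the head of the same route, rose 1.74-fold (adjusted p = 0.0222 by edgeR), a call that ended without wBerlin replicate 3 or Kdm3 KO replicate 3 (adjusted p = 0.0601 and 0.0577). The last enzyme of that route, the phosphatase gene aay, was at 360 to 497 CPM in Kdm3 KO and 350 to 403 CPM in wBerlin and did not pass (adjusted p = 0.569 by edgeR). Agxt, which makes glycine from glyoxylate, rose 2.08-fold (adjusted p = 0.0149 by edgeR). Tdh and Gcat, which break threonine down to glycine, rose 2.04- and 1.81-fold (adjusted p = 0.0114 and 0.0427 by edgeR). Gcat lost its call when any library other than Kdm3 KO replicate 2 was left out (adjusted p = 0.0565 to 0.128 by edgeR). Alas, the first enzyme of heme synthesis and a user of glycine, had a log2 fold change of −0.09, and the glycine transporter gene GlyT one of 0.09 (adjusted p = 0.780 and 0.772 by edgeR). Gss1, a glutathione synthetase gene, is listed at 0 in every library, and its copy Gss2 in all but 1.

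Among 10 tested folate genes 5 rose and 0 fell. The largest were Gart and CG11089, which use formyl-tetrahydrofolate in purine synthesis. Gart was at 489, 376 and 598 CPM in Kdm3 KO, against 179, 173 and 132 CPM in wBerlin (3.02-fold, adjusted p = 0.00255 by edgeR). CG11089 was at 759, 504 and 818 CPM in Kdm3 KO, against 267, 252 and 202 CPM in wBerlin (2.89-fold, adjusted p = 0.00353 by edgeR). Neither gene overlapped between genotypes, and both were lowest in the same libraries as the enzyme genes. Mthfs, CG8665 and pug, which interconvert or oxidize folate one-carbon forms, rose 2.42-, 2.17- and 2.12-fold. Nmdmc, a mitochondrial enzyme acting on methylene-tetrahydrofolate, was at 54.1 to 90.6 CPM in Kdm3 KO and 54.9 to 83.7 CPM in wBerlin (adjusted p = 0.949 by edgeR).

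Among 8 tested genes of the methionine and SAM cycle 1 rose, CG10621, annotated as a homocysteine methyltransferase, at 164, 118 and 180 CPM in Kdm3 KO, against 74.6, 75.3 and 65.3 CPM in wBerlin (2.15-fold, adjusted p = 0.00539 by edgeR). Bhmt had a log2 fold change of −0.23 (adjusted p = 0.368 by edgeR). Of the 4 tested lipoylation and electron transfer partners 0 were called by edgeR (2 at an unadjusted p under 0.05, 1 by DESeq2, 0 by limma voom). The smallest p was that of wal, an electron transfer flavoprotein subunit that takes electrons from sarcosine dehydrogenase, at 221, 169 and 229 CPM in Kdm3 KO, against 148, 158 and 147 CPM in wBerlin (1.37-fold, adjusted p = 0.0977 by edgeR and 0.0202 by DESeq2). Its partner subunit gene Etfb had a log2 fold change of 0.37 (adjusted p = 0.240 by edgeR).

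**Figure D4:**
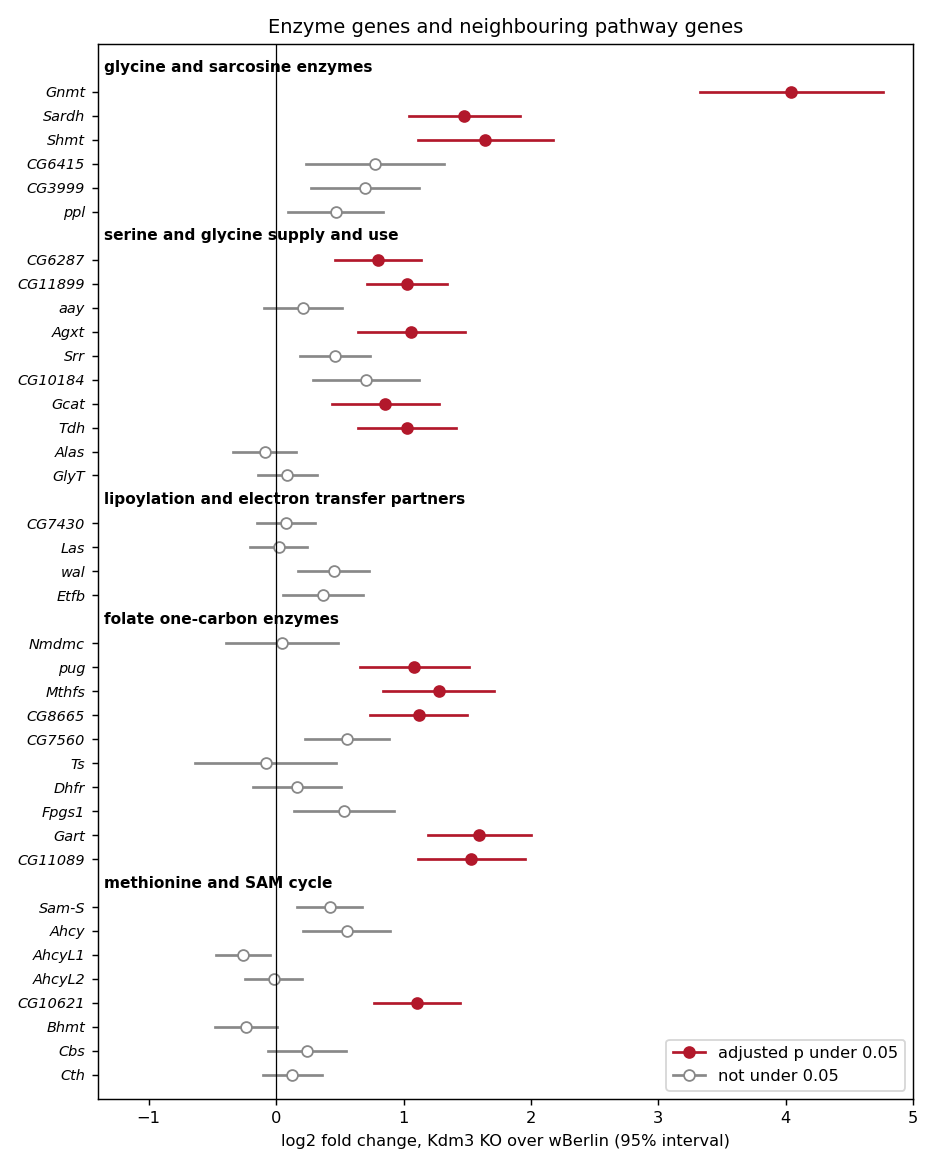
Log2 fold change of Kdm3 KO over wBerlin with its 95% interval for the 6 enzyme genes and 32 tested genes of 4 neighbouring lists, filled where the adjusted p is under 0.05. Gnmt at 4.04 lies far to the right of the others, of which Shmt at 1.64 is the next.

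The genes most like each enzyme gene were taken as those with the smallest root mean square distance between log2 CPM profiles, each centred on its own mean, over the 6 libraries, with genes averaging under 5 CPM left out. For Gnmt no gene came near: the closest were Osi2, the eye pigment transporter gene w and FBgn0028519, which the annotation does not name, at distances of 0.351, 0.389 and 0.407. The labels do not say whether the knockout allele carries a w marker, so the level of w in Kdm3 KO (24.7 ± 3.71 CPM, SD, n = 3) cannot be told apart from a property of the allele or stock. For Sardh they were Cyt-b5-r, CG6503 and Paics at 0.081 to 0.121, and for Shmt Pfas, Miox and Gart at 0.119 to 0.126. Paics, Pfas and Gart encode enzymes of purine synthesis. Pfas was at 390 CPM in Kdm3 KO replicate 2 and 647 CPM in replicate 3, against 216, 203 and 148 CPM in wBerlin. Sardh and Shmt were themselves 0.146 apart, and Gnmt was 1.30 from Sardh and 1.22 from Shmt. The closest to CG6415 were Prat2, the amidotransferase gene of purine synthesis, Npc2g and Aldh7A1, at 0.0817 to 0.106. CG3999 was closest to Glt, rost and CG3597, at 0.0384 to 0.0804, and ppl to CG3902, CCHa2 and Mtp, at 0.044 to 0.0608. CG3999 and ppl were 0.145 apart.

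On arm 3R, CG3999 lies 0.731 Mb and Gnmt 3.15 Mb from Kdm3. Of 440 tested genes between Kdm3 and Gnmt 14 were higher and 12 lower, 5.91% against 3.07% over all tested genes. Of the 119 between Kdm3 and CG3999 5 were higher and 0 lower, or 4.2%. For Gnmt and CG3999, sequence linked to the knockout allele and loss of Kdm3 cannot be told apart. The same holds for the risen folate gene pug, which lies between Kdm3 and Gnmt. Sardh, Shmt, CG6415 and ppl lie on other arms. For them too, loss of Kdm3 and other differences between the 2 stocks cannot be told apart. On X, the arm of Shmt, w was at 24.7 CPM in Kdm3 KO and 1.62 CPM in wBerlin (means). The genes next to the 6 enzyme genes, the nearest pair on each side and any overlapping gene, numbered 28, of which 24 were tested. By edgeR 0 of them were called, beside 3.07% of all tested genes. At an unadjusted p under 0.05 there were 7, a threshold whose share over all genes is not given here. DESeq2 called 1, Act5C beside Shmt (log2 fold change −0.44 in edgeR's fit), and limma voom 0. The genes beside Gnmt, CG14395 at 648 bases and mbo at 402 bases, each had a log2 fold change of 0.08 (95% intervals −0.747 to 0.898 and −0.157 to 0.312), below the interval of Gnmt.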

How the data were processed

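The authors deposited a table of raw read counts per gene for 6 libraries of fly heads. The submitters' processing notes name STAR, SAMtools, HTSeq, DESeq2 and BDGP6. Versions, roles and strand setting were given by none of the sources used here. Rows were matched to the Ensembl annotation of BDGP6.54, of the same assembly family (17626 of 17753). The test was edgeR 4.0.16 under R 4.3.3 (TMM, filterByExpr, glmQLFit and glmQLFTest, genotype only, two-sided, Benjamini-Hochberg adjustment over 14069 genes), after tests on simulated data. SE is the log2 fold change divided by the root of F. A count of 0 allows 0.108 to 0.138 CPM (3 counts, counting error only). RPKM is scaled CPM per kilobase of merged exons. Alternatives were RLE scaling, no filter or 5 CPM in 3 libraries, DESeq2 1.42.0, limma voom 3.58.1, the replicate number as a block, each library left out, and, chosen after the data were seen, 4 libraries.

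Named genes were the 6 enzyme genes, Kdm3, the called members of 4 pathway lists or the one with the smallest p, and 3 genes most like each enzyme gene. Others were named after their values were seen. Members and lists were chosen with earlier results of these data known. CG8446 and Etf-QO matched no single row, and CG8129 is Srr. No replicate was a copy of another (chi-square per degree of freedom 16.8 to 65.8). The motif search planned for promoters was not run.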

Additional observations from a re-analysis of the deposited data

How the results depend on the processing

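Gnmt, Sardh and Shmt kept their direction and their calls in all 13 alternatives each, at log2 fold changes of 3.73 to 4.35, 1.26 to 1.63 and 1.38 to 1.92. CG6415 and ppl stayed uncalled in all 13, at 0.50 to 1.10 and 0.26 to 0.68, and CG3999 in 12, at 0.48 to 0.89, with DESeq2 the exception. Neighbouring-pathway genes that rose numbered 9 to 19 with 1 library left out, 19 without Kdm3 KO replicate 2, and 1 fell, AhcyL1, with the filter of 5 CPM (adjusted p = 0.0225 by edgeR). Over all genes, 303 higher and 129 lower became 492 and 276 with the filter of 5 CPM, 455 and 356 by DESeq2, 606 and 476 in the 4 libraries that leave out Kdm3 KO replicate 2 and wBerlin replicate 1, and 181 to 574 and 62 to 467 with 1 library left out. Lower genes numbered 266 with no filter. The labels name no pairing of same-numbered libraries. Their correlations of deviations were 0.34, 0.25 and −0.05 for replicates 1, 2 and 3, against −0.33 to 0.18 for pairs with unlike numbers. With the replicate block 417 genes were higher and 362 lower, with the same 3 enzyme genes called. Why these counts were larger, and whether same-numbered libraries belong together, was not tested. The glycine cleavage genes had 605 to 2131 reads per library, and their 95% intervals on the log2 scale reach down to between 0.091 and 0.274.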
